A study of Mus musculus with 2 samples.

Results

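The hairpins that carry miR-103 and miR-107, namely Mir103-1, Mir103-2 and Mir107, were followed in heart microRNA-seq. They were taken by gene identifier from the deposited tables, where GENCODE M21 gives those names, and all 3 of the 3 were present among 2202 annotated miRNA genes. Hearts came from male 5xFAD/CAST mice at an adult age of 8 to 10 months, and both libraries (replicates 1 and 2) belonged to this group, with no group of another genotype, treatment or age. 5xFAD mice carry transgenes for mutant human amyloid precursor protein and presenilin under a neuronal promoter, and CAST is a wild-derived inbred strain. The labels tie the replicates to separate biosample entries and to the same donor entry, and no label states that they were separate animals. Every spread and p-value here therefore describes the difference between 2 libraries, which may be technical.

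The miRNAs miR-103 and miR-107 are processed from introns of pantothenate kinase genes, whose enzymes carry out the first step of coenzyme A synthesis. A hairpin is cut by Drosha and Dicer into a 5p and a 3p arm, and the arm that is loaded into Argonaute finds its targets mainly through its seed, bases 2 to 8. The 3p arm is the main product of these hairpins, and it has been studied for its part in lipid metabolism and insulin sensitivity and for repression of Dicer. As background, heart muscle uses coenzyme A heavily because it burns fatty acids.

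On mm10 each hairpin lay in an intron on the strand of its host, and each host held no other annotated miRNA gene. Mir103-1 (ENSMUSG00000065553.1) lies on chromosome 11 from 35782396 to 35782481, plus strand, in intron 5 of 6 of the annotated coding Pank3 transcript. Mir103-2 (ENSMUSG00000065563.1) lies on chromosome 2 from 131288052 to 131288137, plus strand, in intron 5 of 6 of the principal Pank2 transcript and in intron 2 of 3 of a shorter one. Mir107 (ENSMUSG00000065594.1) lies on chromosome 19 from 34820687 to 34820773, minus strand, in intron 5 of 6 of the principal Pank1 transcript and in intron 4 of 5 of another. In the principal transcripts the introns were 1740, 5801 and 7282 nt long for Pank3, Pank2 and Pank1. The hairpins began 688, 454 and 326 nt downstream of the exon before them. Pank4, the other gene of the family, held 0 annotated miRNA genes.

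The hairpins are shown in full because what each table row could count depends on where they differ. Sequences are RefSeq's for GRCm38.p6, were identical to the GENCODE M21 transcripts for all 3 hairpins, and carry the 5p arm and then the 3p arm in capitals.
Mir103-1: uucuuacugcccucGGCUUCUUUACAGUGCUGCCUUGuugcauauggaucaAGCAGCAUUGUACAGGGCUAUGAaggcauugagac
Mir103-2: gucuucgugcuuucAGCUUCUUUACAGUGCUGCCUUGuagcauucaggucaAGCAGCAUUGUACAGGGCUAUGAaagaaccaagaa
Mir107: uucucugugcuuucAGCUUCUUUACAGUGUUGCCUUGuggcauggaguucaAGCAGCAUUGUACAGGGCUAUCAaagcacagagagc

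Both 3p arms share a seed, and their sequences with the seed in capitals show that Mir103-1 and Mir103-2 give the same product.
mmu-miR-103-3p (from Mir103-1 and from Mir103-2): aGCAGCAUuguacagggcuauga
mmu-miR-107-3p: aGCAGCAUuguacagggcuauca

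Counted from 1 at the 5′ end, the 23-nt arms miR-103-3p and miR-107-3p differed by 1 substitution, G22C. The seed GCAGCAU was held by these 2 mature names among the 1679 in the RefSeq table. The 5p arms differed from each other by 1 or 2 bases, in capitals below, which set each apart from the others.
mmu-miR-103-1-5p: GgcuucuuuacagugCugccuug
mmu-miR-103-2-5p: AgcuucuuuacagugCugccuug
mmu-miR-107-5p: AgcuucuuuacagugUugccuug

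The substitution between the Mir103 5p arms was G1A, at the first base. Between miR-103-2-5p and miR-107-5p it was C16U.

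Whether a read could be placed at a single hairpin depended on its arm and its length. A read that starts at the 5′ end of a 3p arm and is 18 to 21 nt long matched all 3 hairpins. At 22 nt it matched Mir107 alone or Mir103-1 and Mir103-2 together. A miR-103-3p read carried on along the hairpin still matched both Mir103 hairpins at 24 nt and only 1 at 25 nt, past the end of the annotated arm. The longest stretch shared by Mir103-1 and Mir103-2 was 27 nt, from position 49 to 75, and that shared by either of them with Mir107 was 24 nt. Reads of 18 to 23 nt from the start of a 5p arm matched 1 hairpin each. These matches are exact and cover the 2202 annotated hairpins, not the rest of the genome.

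**Figure D1:**
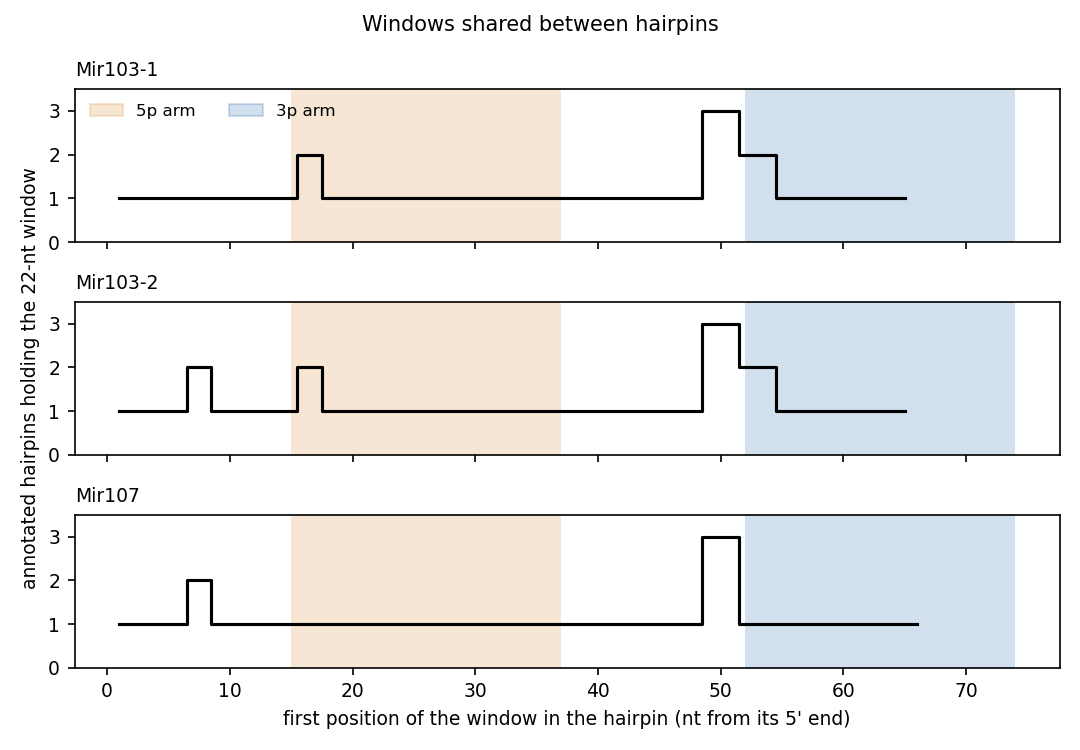
Number of annotated hairpins (y axis) that hold the 22-nt window starting at each position (x axis, nt from the hairpin's 5′ end) of Mir103-1, Mir103-2 and Mir107. Shading marks the annotated 5p and 3p arms. At the start of the 3p arm, position 52, the count is 2 for both Mir103 hairpins and 1 for Mir107.

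Of the reads that the deposited tables gave to these hairpins, nearly all went to Mir107. Mir107 had 2982 sense counts in replicate 1 and 3275 in replicate 2, Mir103-2 had 42 and 24, and Mir103-1 had 8 and 5. The order Mir107, Mir103-2, Mir103-1 was the same in both libraries, and the counts of different hairpins did not overlap. The sense totals were 3889280 and 5058613 counts, and reads aligned to several places, 4576006 and 6650307, were given to no gene. How many of those were miR-103-3p or miR-107-3p was not tested. The row counts of Mir103-1 and Mir103-2 are therefore not the level of miR-103. Because a miR-107-3p read of 18 to 21 nt from the start of the arm matched all 3 hairpins, the Mir107 row may also fall short of miR-107. The files do not tell the arms of a hairpin apart.

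Levels are CPM, the sense count scaled to the library's sense total, with exact 95% Poisson intervals that cover counting error only. Mir107 stood at 767 CPM in replicate 1 (739 to 795) and 647 CPM in replicate 2 (625 to 670), a mean of 707 ± 84.4 (SD, n = 2). It ranked 69 of 2202 by mean CPM, at percentile 79.1 of the 325 genes with at least 10 counts in both libraries, whose median was 49.2 CPM. Mir103-2 stood at 10.8 CPM (7.78 to 14.6) and 4.74 CPM (3.04 to 7.06), a mean of 7.77 ± 4.28. It ranked 263 and lay at percentile 19.4 of those genes.

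Mir103-1 fell short of that minimum of 10 counts in both libraries. It stood at 2.06 CPM in replicate 1 (0.888 to 4.05) and 0.988 CPM in replicate 2 (0.321 to 2.31), a mean of 1.52 ± 0.756 and rank 374. The limit that a count of 0 allows, 3 counts, equals 0.771 CPM in the first library and 0.593 CPM in the second, and the lower end of the interval of Mir103-1 in the second lay below it. Of the 3 hairpins 2 thus passed the minimum.

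The genes nearest in mean CPM to Mir107 and Mir103-2 lay within the spread of those hairpins between the libraries. Mirlet7a-1, a let-7 hairpin, stood just above Mir107 at 728 ± 18.1 CPM, and Mir10b, a hairpin of the Hox clusters, just below at 691 ± 17.3 CPM. Mir199b at 7.78 ± 0.459 CPM and Mir3097 at 7.60 ± 1.25 CPM lay on either side of Mir103-2. Above Mir103-1 the nearest gene past the minimum was Mir5709, at 2.47 ± 0.141 CPM, farther from Mir103-1 than its SD. Nearness in level over 2 libraries says nothing of shared control.

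**Figure D2:**
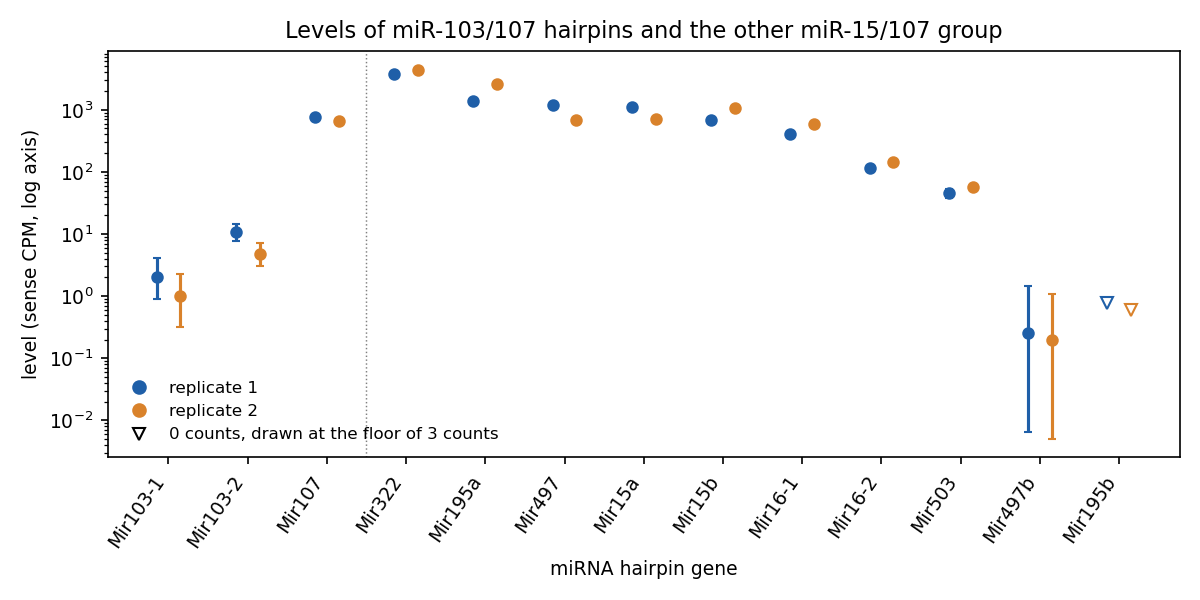
Level of each hairpin in replicate 1 and replicate 2 (sense CPM, log axis) with exact 95% Poisson intervals. Left of the dotted line, Mir107 stands at 767 and 647 CPM against 10.8 and 4.74 for Mir103-2 and 2.06 and 0.988 for Mir103-1, and 10 related genes, described further on, follow on the right (open triangles, 0 counts drawn at the limit of 3 counts).

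Of the reads given to the 3 hairpins, Mir107 took 98.4% in replicate 1, with an exact 95% binomial (Clopper-Pearson) interval from 97.8 to 98.8, and 99.1% in replicate 2, with an interval from 98.7 to 99.4. Mir103-2 took 1.39% (1.00 to 1.87) and 0.726% (0.466 to 1.08), and Mir103-1 took 0.264% (0.114 to 0.519) and 0.151% (0.0492 to 0.353). The hairpins are 86, 86 and 87 nt long, so division by length left the mean share of Mir107 at 98.7%. Together they held 0.0780% and 0.0653% of all sense counts.

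The count of Mir107 was 71.0 times that of Mir103-2 in replicate 1 (exact interval 52.4 to 98.7) and 136 times in replicate 2 (91.5 to 213). Mir103-2 had 5.25 times the count of Mir103-1 in replicate 1 (2.43 to 12.9) and 4.80 times in replicate 2 (1.80 to 16.1). The latter ratio was close in the libraries, but its intervals are wide because they rest on 8 and 5 counts of Mir103-1.

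All 3 hairpins had their higher level in replicate 1, and 2 of the 3 passed the test. Differences were tested by an exact two-sided binomial test on the counts, scaled by TMM (a library scaling that trims extreme genes), with Benjamini-Hochberg adjustment over the 412 genes whose counts summed to 10 or more. Of those genes, 187 passed, or 45.4%, and 22.8% did so with the higher level in replicate 1. Among the 206 genes that averaged 100 counts or more, as Mir107 did, 72.3% passed. Passing is therefore common between these libraries. Mir107 was 1.09-fold higher in replicate 1 (exact interval 1.04 to 1.14), with a log2 ratio of replicate 2 over replicate 1 of -0.12 (adjusted p = 0.00211, exact binomial test). With the column that ignores strand this call was lost (log2 ratio -0.07, adjusted p = 0.0871), and with scaling by total counts the log2 ratio was -0.24.

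Mir103-2 was 2.09-fold higher in replicate 1 (1.24 to 3.61; log2 ratio -0.93, adjusted p = 0.0105, exact binomial test). Mir103-1 did not pass, with a log2 ratio of -0.55 and an adjusted p of 0.403 by the exact binomial test. Its ratio of replicate 1 over replicate 2, 1.91, had an interval from 0.552 to 7.43, which holds both no difference and the ratio of Mir103-2. Each log2 ratio was taken after adding 1 CPM, and this understates the change of the low Mir103 hairpins. The median absolute log2 ratio over the 325 genes past the minimum was 0.36, and 57 of them differed less between the libraries than Mir107 did.

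**Figure D3:**
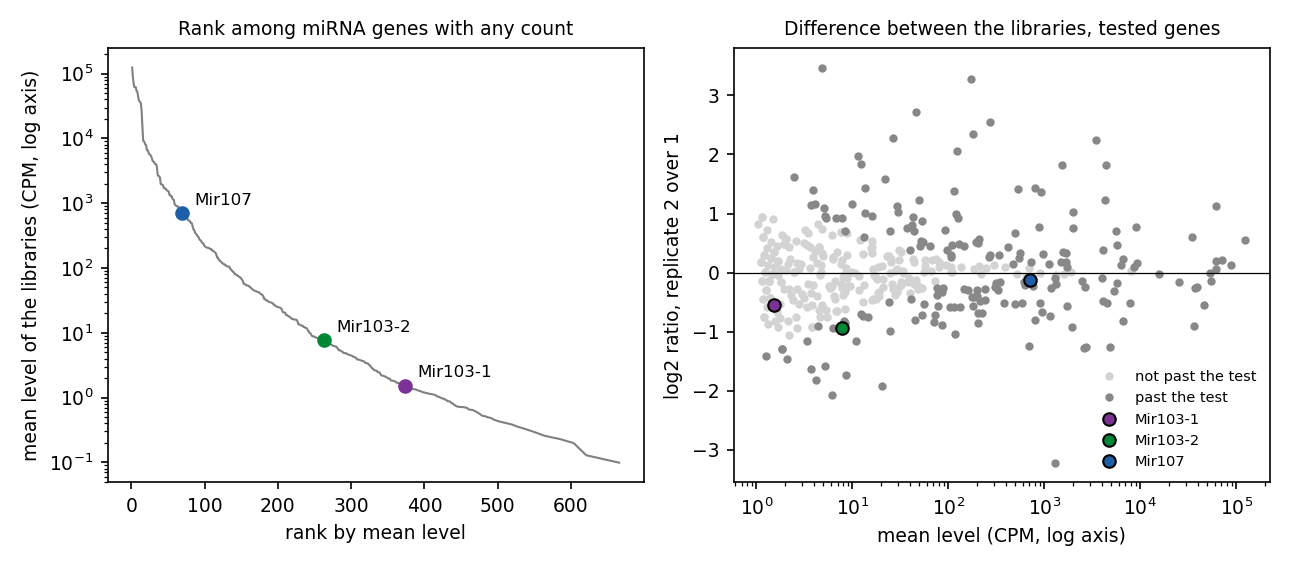
Left, mean CPM (log axis) against rank for miRNA genes with any count, where Mir107, Mir103-2 and Mir103-1 hold ranks 69, 263 and 374. Right, log2 ratio of replicate 2 over replicate 1 against mean CPM (log axis) for the 412 tested genes, with the hairpins at -0.12, -0.93 and -0.55 in the colours of the left panel.

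The ratio between hairpins was compared across the libraries by Fisher's exact test, two-sided, for the 3 possible pairs. Mir103-2 made up less of the Mir107 and Mir103-2 counts in replicate 2 than in replicate 1, 24 against 3275 and 42 against 2982 (odds ratio 0.520 for Mir107 over Mir103-2 in replicate 1 relative to replicate 2, p = 0.0127, 0.0380 adjusted over the 3 pairs, Fisher's exact test). The pairs Mir107 with Mir103-1 (p = 0.408, Fisher's exact test) and Mir103-2 with Mir103-1 (p = 1) did not differ beyond counting error. This test compares the 2 libraries and not conditions.

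Strand did not divide the reads of these hairpins. On the opposite strand each had 0 counts in both libraries, and in the column that ignores strand all 3 hairpins kept exactly their sense counts. No other annotated gene apart from the host overlapped them, and no miRNA gene lay within 10 kb.

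The wider group of miR-15, miR-16, miR-103 and miR-107 is known for the motif AGCAGC near the 5′ end of the mature miRNA, and its other members include regulators of the cell cycle. The motif began at the first base of miR-103-3p and miR-107-3p and at base 2 in the other arms of the group that hold it, so the seed of those arms, AGCAGCA in all but miR-503-5p, is shifted by a base. Among 1679 mature names in the RefSeq table, 13 (0.774%) had AGCAGC, on the strand of the miRNA, starting at base 1, 2 or 3. Examples with the motif in capitals follow, chosen to show this shift.
mmu-miR-107-3p: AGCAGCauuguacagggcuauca
mmu-miR-322-5p: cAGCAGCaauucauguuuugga
mmu-miR-195a-5p: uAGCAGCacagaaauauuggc
mmu-miR-16-5p: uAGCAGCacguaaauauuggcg
mmu-miR-503-5p: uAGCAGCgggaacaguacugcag

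Beside the 3 hairpins, 10 genes of the group were annotated, of which 8 passed the minimum of 10 counts, against 14.8% of all 2202 genes. The median over all 10 was 693 CPM and over those 8 it was 892 CPM, against 707 CPM for Mir107. Mir322, the mouse counterpart of human miR-424, led the group at 3704 and 4434 CPM, and Mir195a followed at 1374 and 2567 CPM. Mir322, Mir195a, Mir497 (1187 and 687 CPM) and Mir15a (1089 and 701 CPM) exceeded Mir107 in both libraries, the latter 2 narrowly in replicate 2.

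Mir15b, at 692 and 1085 CPM, lay below Mir107 in replicate 1 and above it in replicate 2. Mir16-1 (403 and 592 CPM), Mir16-2 (114 and 146 CPM) and Mir503 (45.0 and 57.1 CPM) were below Mir107 in both. The Mir16 hairpins share their 5p arm whole, so their rows, like those of the Mir103 hairpins, may lack reads that aligned to both, and their place relative to Mir107 holds only among reads given to a gene. Mir195b had 0 counts, and Mir497b, annotated opposite Mir497 and without the motif in its mature sequence, had 1 count in each library. Mir107 made up 8.17% of the counts of the group and the 3 hairpins together in replicate 1 and 5.93% in replicate 2, again among reads given to a gene.

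All 8 tested genes of the group passed the test between the libraries, 6 with the higher level in replicate 2 and 2, Mir15a and Mir497, in replicate 1. Their median log2 ratio was 0.47, against -0.01 over all tested genes, while Mir107 stood at -0.12. Of the 206 genes that averaged 100 counts or more, to which all 8 belong, 72.3% passed, so a high number of calls is common at this depth. Mir195a had the largest ratio of the group, 2.03-fold higher in replicate 2 (exact interval 1.97 to 2.10).

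Hairpins with a near copy elsewhere in the annotation were placed side by side with the miR-103 and miR-107 hairpins. Of the 2202 genes, 1018 matched a RefSeq mature sequence by symbol and held it whole in their hairpin. An arm not found in the gene's own hairpin was left out, so some genes were classed by 1 arm. In 61 of the 1018 genes at least 1 arm, but not all, was found whole in another hairpin. Mir103-1 and Mir103-2 were among them, each with 1 of 2 arms. Of the 61, 33 (54.1%) passed the minimum of 10 counts. The median over all 61 was 7.77 CPM, which is the level of Mir103-2 itself as the middle gene. Below Mir103-2 lay 30 genes, and below Mir103-1 lay 23. In another 58 the nearest other hairpin was 1 mismatch away, as for Mir107, and 30 of them (51.7%) passed the minimum. The median over all 58 was 5.37 CPM, and 43 lay below Mir107.

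In 53 genes each arm that was compared was held by another hairpin, and 4 of these genes (7.55%) passed the minimum. In the remaining 846 genes each arm compared was 2 or more mismatches from any other hairpin, and 223 (26.4%) passed. Some of the 846 may have a nearer copy of an arm that was left out. These classes also differ in which miRNAs they hold, and the part of shared sequence in their counts was not tested.

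Pairs and triplets whose names differ only in a final number formed 53 families of 115 hairpins. The miR-103 pair, with 50 counts in replicate 1 and 29 in replicate 2, ranked 20 of the 53 by summed CPM. Families with 0 counts in both libraries shared the last rank, 32. In the 24 families with counts at the highest and the lowest hairpin in both libraries, the mean ratio between them ranged from 1.10 for Mir365 to 96.0 for Mir181b, with a median of 3.39. The miR-103 pair stood at 5.03 ± 0.318. For the Mir16 pair, whose 5p arm is the same from both hairpins, it was 3.79, with 1567 and 442 counts in replicate 1 and 2997 and 741 in replicate 2.

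**Figure D4:**
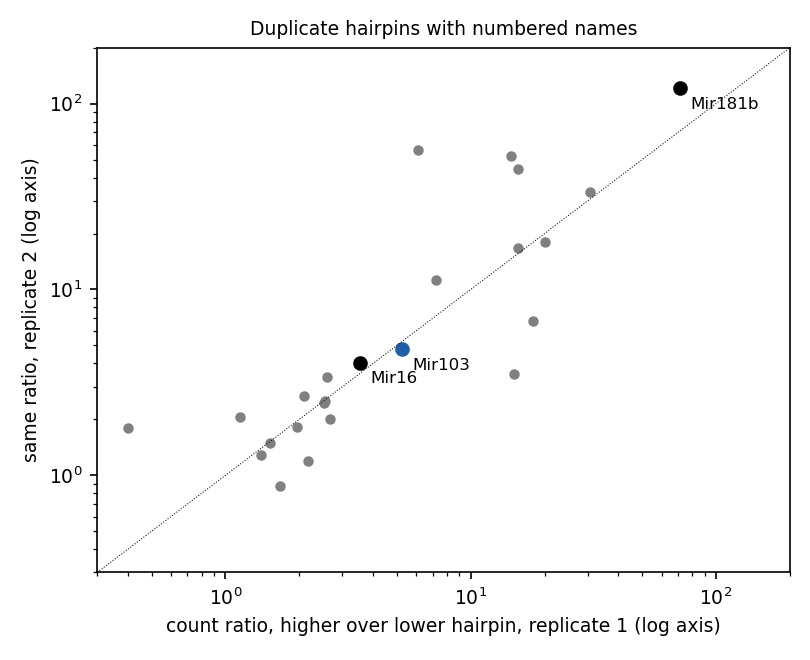
Count ratio of the higher over the lower hairpin (by mean CPM) of each numbered family in replicate 1 (x) and replicate 2 (y), both on log axes, with the line of equal ratios. The miR-103 pair lies near the line at 5.25 and 4.80, between the Mir16 pair and the Mir181b pair.

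The tissue label was set against miRNA markers. The heart muscle genes Mir208a and Mir499 and the paired Mir1a and Mir133a hairpins summed to 6661 and 7425 CPM with 0 of 6 at 0, nearly all from Mir208a and Mir499. These did not move together between the libraries, with Mir208a at 3885 and 1485 CPM and Mir499 at 2732 and 5888 CPM. The Mir1a and Mir133a hairpins are numbered pairs, and their rows may lack reads that aligned to several places. Mir1a-2, the highest of these rows, had 36.3 and 43.9 CPM, so low rows here do not show that miR-1 or miR-133a was low. Endothelial Mir126a reached 87115 and 87787 CPM, and the smooth muscle genes Mir143 and Mir145a summed to 30137 and 41747 CPM. The liver gene Mir122 had 28.8 and 27.1 CPM and the skeletal muscle gene Mir206 had 14.9 and 11.7 CPM. Of 6 brain genes, the Mir9 and Mir124a hairpins, 4 were at 0 and the list had 0 counts in replicate 1 and 4 in replicate 2. Every RefSeq arm of the 3 Mir9 hairpins is held whole by another hairpin, and the Mir124a hairpins are a numbered triplet with no match in the RefSeq table, so these low counts do not show that brain miRNAs were absent. Which heart cells the Mir107 reads came from was not tested, and in bulk tissue fewer cells of a type and less RNA per cell cannot be told apart.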

How the data were processed

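Small RNA from heart was measured by microRNA-seq in 2 libraries of 1 group. Per the labels, total RNA was used with a size range below 30. The deposited tables hold raw read counts, in 3 columns, for 2202 miRNA genes and 4 summary lines that name no gene. Genome build mm10 and GENCODE M21 are named per the file headers of the deposited description files. Which aligner was used, and with what mismatch allowance, is not given in the sources used here. Reads aligned to several places, 42.3% and 46.8% of reads, stand in a summary line, and all summary lines, which with them held 64.1% and 64.4%, stayed out of library sizes and tests.

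The sense column was set in advance by its position, and in each library its total exceeded that of the opposite strand. Levels are CPM of sense totals. TMM factors came from edgeR 4.0.16, the exact tests from scipy 1.17.1, and DESeq2 1.42.0 size factors served as an alternative. With a single group, edgeR's quasi-likelihood test could not be used. The binomial test was tried on simulated counts with counting error alone. Such counts cannot show how it behaves where libraries differ by more than that. A gene passed at an adjusted p below 0.05. Because PCR reads without molecular identifiers are not independent molecules, intervals and floors reflect only counting error. Hairpin and mature sequences were compared by exact match and by mismatch count without gaps.

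The hairpins, the lists and the tests were chosen with earlier results of these data known. Genes were named by a rule: the 3 hairpins, the miR-15 and miR-107 group, the gene next above and next below each hairpin in mean CPM among those past the minimum, and the numbered families of highest and lowest ratio. The Mir16 pair was named because it belongs to that group. Tissue and cell type markers were a separate list and fall outside that rule. The class of genes averaging 100 counts or more was added after the data were seen.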

Additional observations from a re-analysis of the deposited data

How the results depend on the processing

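Of 60 recomputed values, 53 kept their direction and call or stayed within the allowed range, 6 moved and 1 call was lost. For levels and shares that range was the SD between the libraries. Some of the 53 could not have moved. A level or share with 1 of 2 libraries left out always lies within the SD of the mean. The shares in the column that ignores strand rest on the same counts, and the pseudocount does not enter the p-value. With all reads of the table as denominator, the mean levels were 253 CPM for Mir107, 2.78 CPM for Mir103-2 and 0.545 CPM for Mir103-1. In the column that ignores strand Mir107 stood at 925 CPM, because the gene total of that column is smaller, and per 100 nt of hairpin at 813 CPM. In the column that ignores strand the difference of Mir107 between the libraries was -0.074 on the log2 scale and lost its call. Its counts are the same in both columns, so the shift of 0.048 comes from the library scaling, whose TMM size ratio of replicate 2 over replicate 1 was 1.20 in the sense column and 1.16 in the other. The adjusted p of that difference lay between 1.19e-10 and 0.0871 over the alternatives (exact binomial test). Scaling by total counts lowered the log2 ratios by 0.12 before the pseudocount, and the directions of Mir107, Mir103-2 and Mir103-1 held under each scaling run.

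With at least 1 count in both libraries as the minimum, the median of the numbered families' hairpins past it was 15.97 CPM, against 71.9 CPM with at least 10, because more low genes enter. With either library left out, Mir107 lay between 647 and 767 CPM, Mir103-2 between 4.74 and 10.8 CPM and Mir103-1 between 0.988 and 2.06 CPM, and the share of Mir107 between 98.4% and 99.1%. The test between the libraries has no value with 1 library left out. With a sum of at least 50 counts Mir103-1 was not tested. No paired analysis was possible because the study has a single group. The Mir103 rows rest on 5 to 42 counts a library, and reads that aligned to both hairpins are not among them. The Mir107 row may likewise lack short 3p reads, which match all 3 hairpins.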
